A study of Mus musculus with 4 samples.

Results

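A set of 8 nuclear genes that copy and transcribe the mitochondrial genome was followed through oocyte maturation with and without tubastatin A (TubA), an inhibitor of the deacetylase HDAC6. The genes were *Tfam*, *Tfb1m*, *Tfb2m* and *Polrmt* for transcription and *Polg*, *Polg2*, *Twnk* and *Ssbp1* for replication. They were taken by symbol as known components of both machineries, a choice made with earlier results of these data known, and all 8 were found among the 21957 genes of the expression table. The table came from 4 RNA-seq libraries of oocytes from PMSG-primed B6D2F1 females (a cross of C57BL/6 and DBA) aged 6 to 8 weeks, with 1 library a condition. GV oocytes, arrested in prophase at the germinal vesicle stage, were taken at 0 h. MII oocytes had been matured in drug-free M16 medium for 12 h and were kept only if a polar body had been extruded, whereas the libraries TubA-10 and TubA-20 came from oocytes cultured for 12 h in 10 or 20 µM TubA dissolved in DMSO. No selection for a polar body is described for the TubA oocytes, and a DMSO-only library is not among the 4, so drug, vehicle and stage reached cannot be told apart. The methods describe each library as a pool of denuded oocytes, while another passage of the paper speaks of single oocytes. The doses are those of the sample titles. The treatment field gives the sample titled TubA-10 the dose that the other title carries, and gives the sample titled TubA-20 a number that neither title has, so every statement on dose rests on the titles. The MII title says embryo.

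Values are FPKM, fragment counts scaled to the length of the transcript and to the size of the library, and so are shares of a library. Changes are given as log2 ratios of FPKM + 1, and a gene was called lower or higher where that ratio passed 2-fold. With 1 library a condition there is no spread between replicates, so no difference below was tested, and fewer cells of a type and less RNA per cell cannot be told apart. All 10 oocyte markers were above 0 in every library, with summed levels of 9431 to 11113 FPKM. Single oocyte markers moved with the comparisons all the same. In MII against GV, *Figla* fell (-1.09, but -0.87 at equal *Gapdh*) and *Bmp15* rose (1.08). The *Bmp15* call is lost with the median change of all genes set to 0, which shifts each change there by -0.13. In TubA-20 against GV, 4 of the 10 fell past 2-fold, among them *Figla* (-2.77), *Zp2* (-1.36) and *Zp3* (-1.33). Here 1 rose, *Gdf9* (1.11, but 0.92 with the median change of all genes set to 0). Of all genes with a mean of at least 1 FPKM, 23.9% fell and 16.2% rose in TubA-20 against GV. The shares in MII against GV were 17.2% and 6.5%. In TubA-20 against MII, 3 of the 10 fell, *Figla* (-1.68), *Zp2* (-1.41) and *Zp3* (-1.21), beside 5.22% of all genes. The 10 cumulus and granulosa cell markers summed to between 22.0 and 26.9 FPKM. Most of that sum was *Cyp19a1* and *Nr5a2*, while *Foxl2* was listed at 0 in all 4 libraries. *Inha* was the marker of this list past 2-fold against GV, at 7.50 FPKM in GV and 0.314, 0.310 and 0.239 FPKM in MII, TubA-10 and TubA-20. *Inhba*, *Fshr* and *Amh* were also highest in GV, at 0.956, 0.417 and 0.127 FPKM, while *Kitl* was lowest there, at 0.952 FPKM against 2.75, 2.03 and 2.30 FPKM. The part of these markers in the results was not tested. The 7 blood cell markers summed to at most 0.0779 FPKM. The spacing of low values placed the depth of MII and TubA-10 at 1.63 and 1.68 times that of GV. That of TubA-20 was placed at 0.897 times. Of the low values in a window around the estimated step, 29.2%, 33.8% and 86.6% lay close to it, in the same order. These are shares of that window and not of all low values. These estimates are rough, and no order between GV and TubA-20 is read from them.

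Mitochondrial DNA is read by the single-subunit polymerase POLRMT, which starts at its promoters together with TFAM and TFB2M. TFAM also packages the genome into nucleoids, and TFB1M methylates the small ribosomal RNA of the organelle. The copying machinery consists of the polymerase POLG, its processivity subunit POLG2, the helicase TWNK and the single-stranded DNA binding protein SSBP1. The oocyte carries far more mitochondrial genomes than most cells, and transcription from its nucleus is largely silent from the end of growth until after fertilization, so that transcript levels in maturation are set mainly by the stored RNA, its decay and its polyadenylation.

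Across the 4 libraries the members did not move as a block. On the FPKM scale *Ssbp1* and *Polrmt* had the largest losses from GV to every cultured library. *Polg* and *Twnk* had smaller losses, but also lost most of their level in each. In MII the FPKM of *Polg* was 3.81-fold lower than in GV, near the 4.11-fold of *Polrmt*. *Polg2* was lower in every cultured library as well. TubA-20 was the lowest library for *Ssbp1*, *Polrmt*, *Polg2*, *Twnk* and *Tfam*. *Tfam* and *Tfb1m* stayed within 2-fold, and *Tfb2m* was higher in all 3 cultured libraries. Summed over the 8 genes the level was 246.1 FPKM in GV, 90.1 FPKM in MII, 96.8 FPKM in TubA-10 and 69.6 FPKM in TubA-20. Without *Ssbp1* and *Polrmt* the sum was 73.6, 52.5, 53.9 and 52.2 FPKM in the same order. The difference between the cultured libraries in the total thus lay mainly in these genes.

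**Figure D1:**
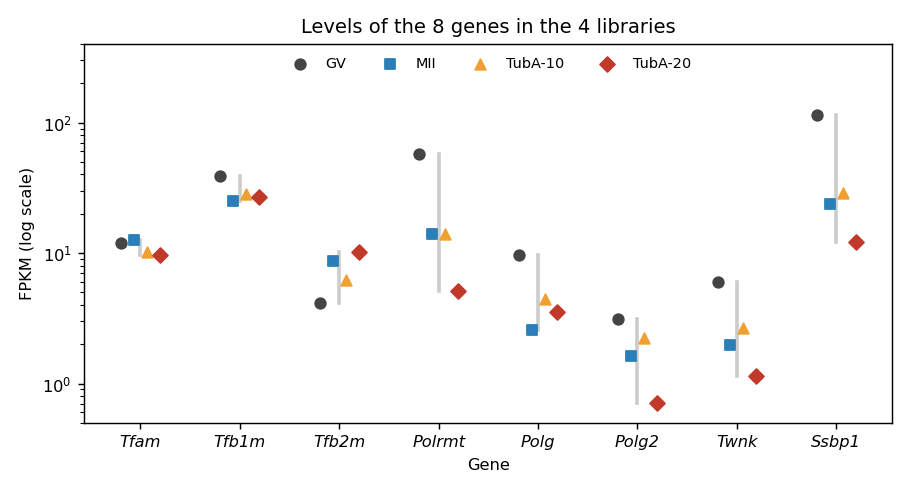
Level of each of the 8 genes in the 4 libraries (GV, MII, TubA-10 and TubA-20), in FPKM on a log axis; each point is 1 library, grey lines span lowest to highest, and there are no error bars because each condition has 1 library. *Ssbp1* runs from 114.8 FPKM in GV to 12.2 FPKM in TubA-20 and *Tfb2m* from 4.13 to 10.2 FPKM, while *Tfam* lies between 9.72 and 12.6 FPKM.

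*Tfam* (ENSMUSG00000003923.14; chromosome 10, 71225464 to 71238280, minus strand, in the GRCm38 annotation), the packaging and transcription factor, measured 11.8 FPKM in GV, 12.6 FPKM in MII, 10.2 FPKM in TubA-10 and 9.72 FPKM in TubA-20. It was the flattest of the 8 genes. Relative to GV, MII changed by 0.08 on the log2 scale, TubA-10 by -0.19 and TubA-20 by -0.26, and the sign turned in MII (-0.04, with the median change of all genes set to 0) and in TubA-10 (0.05, at equal *Gapdh*). With MII as the base, the values for the lower and the higher dose were -0.28 and -0.34.

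*Tfb1m* (ENSMUSG00000036983.6; chromosome 17, 3519256 to 3557781, minus strand), the ribosomal RNA methyltransferase, measured 38.8 FPKM in GV, 24.97 FPKM in MII, 28.2 FPKM in TubA-10 and 26.9 FPKM in TubA-20. GV was the highest library and the 3 cultured libraries lay close together. It shares 142 exonic bases with *Tiam2* on the opposite strand, which was lowest in GV at 13.2 FPKM and measured 22.2 to 33.1 FPKM in the others. The log2 changes from GV were -0.62, -0.45 and -0.51, none of them past 2-fold. With MII as the base, TubA-10 gave 0.17 and TubA-20 gave 0.10, the latter turning sign (to as low as -0.05) at equal upper quartiles, equal FPKM sums or equal *Gapdh*.

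*Tfb2m* (ENSMUSG00000026492.11; chromosome 1, 179528055 to 179546267, minus strand), the initiation factor that opens the promoter for POLRMT, measured 4.13 FPKM in GV, 8.72 FPKM in MII, 6.16 FPKM in TubA-10 and 10.2 FPKM in TubA-20. It was the only one of the 8 genes with its highest level in TubA-20, and GV was its lowest library. On the log2 scale MII differed from GV by 0.92, which passed 2-fold with smaller pseudocounts, equal FPKM sums or equal *Gapdh* (up to 1.12), and TubA-10 by 0.48. The gene rose by 1.12 in TubA-20, a value that 88.2% of all genes were below, and the call was lost (0.93) with the median change of all genes set to 0. The values relative to MII were -0.44 for TubA-10 and 0.20 for TubA-20. Part of the level is uncertain, because the pseudogene *Gm1818* matches 1187 bases of a *Tfb2m* transcript at 99.3% identity. That gene itself was listed at 0.0949 to 0.416 FPKM. The protein-coding gene *1500011B03Rik* matches it less closely, at 90.6% over 223 bases, but is more abundant and also higher in the cultured libraries, at 25.1 FPKM in GV and 42.1 to 52.9 FPKM in the others. Its part in the *Tfb2m* values was not tested.

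*Polrmt* (ENSMUSG00000020329.12; chromosome 10, 79736123 to 79746581, minus strand), the mitochondrial RNA polymerase, measured 57.7 FPKM in GV, 14.0 FPKM in MII, 13.9 FPKM in TubA-10 and 5.11 FPKM in TubA-20. MII and TubA-10 were nearly equal and TubA-20 was the lowest. It fell in every cultured library, with a log2 change from GV of -1.97 for MII and of -1.98 for TubA-10. The change was -3.27 for TubA-20, where the FPKM was 11.3-fold lower and only 1.64% of all genes had a lower change. Against MII the log2 change was -0.01 in TubA-10, turning to 0.02 at equal *Gapdh*, and the gene fell by 1.30 in TubA-20, where 1.83% of all genes had a lower change.

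The transcripts of the polymerase and of its partners at the promoter therefore stood in other proportions in each library. On the FPKM scale the ratio of *Polrmt* to *Tfam* was 4.88 in GV, against 1.11 and 1.36 in MII and TubA-10, and dropped below 1 in TubA-20 at 0.526. The ratio of *Polrmt* to *Tfb2m* was 14.0 in GV, against 1.61 and 2.25 in MII and TubA-10, and 0.503 in TubA-20. In TubA-20 alone of the 4 libraries *Polrmt* had a lower FPKM than *Tfam* and than *Tfb2m*. *Tfb2m* and *Polrmt* were also the pair of members with the most different profiles, at a Euclidean distance of 3.15 between their log2(FPKM + 1) values centred on each gene's mean over the 4 libraries.

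Promoters of several such genes are known targets of NRF1 and of the ETS factor GABP, so the windows of 300 bases around the RefSeq starts (GRCm38.p6), most of each lying before the start, were searched on both strands for GCGCANGCG, the NRF1 letters, and CCGGAAGT, the GABP letters. *Tfb2m* and *Polrmt* are shown because both carried the NRF1 letters while their levels went opposite ways, *Tfam* as the flattest gene, and *Ssbp1* because neither motif was found in its window. Capitals mark the matches, and each run reads 5′ to 3′ on the strand of the gene, from chr1:179546227-179546526 for *Tfb2m*, chr10:79746532-79746831 for *Polrmt* and chr10:71237995-71238294 for *Tfam* on the minus strand and from chr6:40471218-40471517 for *Ssbp1* on the plus strand.
Tfb2m: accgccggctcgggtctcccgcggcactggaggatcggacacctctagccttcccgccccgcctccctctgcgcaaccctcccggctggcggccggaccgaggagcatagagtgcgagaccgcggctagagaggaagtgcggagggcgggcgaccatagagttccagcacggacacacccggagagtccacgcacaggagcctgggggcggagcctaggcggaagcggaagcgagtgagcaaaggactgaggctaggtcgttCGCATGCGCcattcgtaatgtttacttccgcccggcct
Polrmt: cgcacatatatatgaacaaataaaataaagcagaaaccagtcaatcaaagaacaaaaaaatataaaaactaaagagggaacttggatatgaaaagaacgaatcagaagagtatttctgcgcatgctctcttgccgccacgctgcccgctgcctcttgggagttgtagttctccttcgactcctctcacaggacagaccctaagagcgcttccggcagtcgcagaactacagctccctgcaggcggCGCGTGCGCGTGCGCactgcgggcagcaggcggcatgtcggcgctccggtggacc
Tfam: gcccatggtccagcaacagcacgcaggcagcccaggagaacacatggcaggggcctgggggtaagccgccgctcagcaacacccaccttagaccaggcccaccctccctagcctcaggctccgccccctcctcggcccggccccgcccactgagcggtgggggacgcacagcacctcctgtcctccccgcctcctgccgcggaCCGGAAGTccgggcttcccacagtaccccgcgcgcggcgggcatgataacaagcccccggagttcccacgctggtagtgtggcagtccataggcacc
Ssbp1: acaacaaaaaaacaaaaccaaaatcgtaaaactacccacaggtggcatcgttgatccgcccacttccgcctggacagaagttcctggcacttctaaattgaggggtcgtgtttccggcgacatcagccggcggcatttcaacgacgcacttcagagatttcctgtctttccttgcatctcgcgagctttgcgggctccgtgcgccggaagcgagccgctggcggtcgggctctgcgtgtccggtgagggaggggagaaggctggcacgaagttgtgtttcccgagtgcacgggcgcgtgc

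Counting bases from the start, with 1 as the first transcribed base and -1 as the base before it, the NRF1 letters began at 13 in *Tfb2m* and at -5 and 2 in *Polrmt*, where the matches overlap. All lay on the opposite strand. The GABP letters began at -47 in *Tfam*, at -38 in *Polg* and at -111 in the second of the *Twnk* windows. *Tfb1m*, *Polg2*, *Ssbp1* and the other *Twnk* window held neither. The NRF1 letters were in 6.25% of 32851 mouse promoter windows and in 14.2% of the 10375 windows of genes with a mean of at least 1 FPKM here. For the GABP letters these shares were 3.89% and 8.90%. A match is a run of letters and not a measured binding site, and the members with the NRF1 letters included the gene with the lowest and the gene with the highest change in TubA-20 against GV. At the other end of the transcripts, the cytoplasmic polyadenylation letters TTTTAT or TTTTAAT, through which stored oocyte messengers are known to gain tails, were not in the last 100 bases of the annotated 3′ untranslated region of any of the 8 members (53 bases in *Polg2*), whereas 20.5% of 9520 genes held them there. Their absence says only that these letters are not in this window.

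*Polg* (ENSMUSG00000039176.17; chromosome 7, 79446231 to 79466362, minus strand), the catalytic subunit of the DNA polymerase, measured 9.74 FPKM in GV, 2.55 FPKM in MII, 4.45 FPKM in TubA-10 and 3.56 FPKM in TubA-20. *Polg* and *Tfb1m* were the members with their lowest level in MII. Its log2 change from GV was -1.59 for MII and -1.23 for TubA-20, both falls past 2-fold, and -0.98 for TubA-10, short of 2-fold but past it (-1.13) with a pseudocount of 0.01. Relative to MII, TubA-10 stood at 0.62, above 93.3% of all genes, and TubA-20 at 0.36. Its exons share 921 bases with *Fanci* on the opposite strand, which measured 3.04 to 4.43 FPKM. The reads were counted by strand.

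*Polg2* (ENSMUSG00000020718.12; chromosome 11, 106768253 to 106779537, minus strand), the processivity subunit, measured 3.11 FPKM in GV, 1.64 FPKM in MII, 2.22 FPKM in TubA-10 and 0.707 FPKM in TubA-20. It had the lowest level of the 8 genes in every library. Its log2 change from GV passed 2-fold in TubA-20, at -1.27 (-2.12 with a pseudocount of 0.01), where the FPKM was 4.40-fold lower, and was -0.64 in MII and -0.35 in TubA-10. The differences from MII were 0.29 at the lower and -0.63 at the higher dose. The latter passed 2-fold (-1.20) with a pseudocount of 0.01. The ratio of the *Polg* to the *Polg2* FPKM was lowest in MII at 1.56 and highest in TubA-20 at 5.04, with 3.13 in GV and 2.01 in TubA-10. The TubA-20 ratio rests on the low *Polg2* value. On the log2 scale of FPKM + 1 the transcripts differed alike from GV in TubA-20, by -1.23 and -1.27. With a pseudocount of 0.01 they differed by -1.45 for *Polg* and -2.12 for *Polg2*, so the likeness depends on the pseudocount.

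*Twnk* (ENSMUSG00000025209.4; chromosome 19, 45005663 to 45012762, plus strand), the helicase that opens the DNA ahead of the polymerase, measured 5.95 FPKM in GV, 1.98 FPKM in MII, 2.66 FPKM in TubA-10 and 1.14 FPKM in TubA-20. Its order of libraries, with GV highest, TubA-10 above MII and TubA-20 lowest, was shared with *Polg2* and *Ssbp1*. The log2 changes from GV were -1.22 for MII and -1.70 for TubA-20, both falls past 2-fold, and -0.93 for TubA-10, past 2-fold (-1.16) with a pseudocount of 0.01. In TubA-20 the FPKM was 5.22-fold lower than in GV, and the log2 change came to -2.37 with that pseudocount. From MII the gene differed by 0.29 in TubA-10 and by -0.48 in TubA-20. *Twnk* shares 507 exonic bases with *Mrpl43*, a ribosomal protein gene on the opposite strand that ran from 18.8 FPKM in GV through 9.76 FPKM in TubA-10 and 6.94 FPKM in MII to 1.97 FPKM in TubA-20.

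*Ssbp1* (ENSMUSG00000029911.14; chromosome 6, 40471352 to 40484700, plus strand), which coats single-stranded mitochondrial DNA during copying, measured 114.8 FPKM in GV, 23.6 FPKM in MII, 29.1 FPKM in TubA-10 and 12.2 FPKM in TubA-20. It was the most abundant of the 8 in GV and came after *Tfb1m* in MII and TubA-20. It fell in every cultured library, with a log2 change from GV of -2.24 in MII and -1.95 in TubA-10. The change was -3.13 in TubA-20, where the FPKM was 9.37-fold lower and 2.06% of all genes had a lower change. Taken from MII, TubA-10 lay at 0.29 and TubA-20 at -0.89. The latter passed 2-fold (-1.04) at equal *Gapdh*. *Ssbp1* stands in a DNA replication gene list that the study itself chose on these samples, so its direction is no independent evidence. Some of its reads could belong to the processed pseudogene *Gm12115*, which matches it at 97.8% identity over 447 bases and has no row in the table.

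Within the summed level, the *Ssbp1* share was 46.6% in GV and lay at 26.2% for MII, 30.02% for TubA-10 and, lowest, 17.6% for TubA-20. *Polrmt* took 23.5%, 15.6%, 14.3% and 7.34% in the same libraries. *Tfb1m* went the other way, from 15.8% in GV to 27.7%, 29.1% and 38.7%. *Polrmt* and *Ssbp1*, one from each machinery, had the most similar profiles of all pairs of members, at a distance of 0.301, followed by *Polg2* and *Twnk* at 0.471. The closest pair thus crossed the machineries, and the subunits *Polg* and *Polg2* were not among the closest pairs.

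Maturation without drug set the base for the other comparisons. In MII against GV, 4 of the 8 members fell past 2-fold (*Polrmt*, *Polg*, *Twnk* and *Ssbp1*), where 17.2% of the 10199 genes with a mean of at least 1 FPKM did, and none rose, where 6.5% did. The median change of the members was -0.93 and that of all genes 0.07. In TubA-10 against GV, 2 of 8 fell (*Polrmt* and *Ssbp1*), beside 11.5% of all genes, and none rose, beside 1.53%. The medians were -0.69 for the members and 0.10 for all genes. In TubA-20 against GV, 5 of 8 fell (*Polrmt*, *Polg*, *Polg2*, *Twnk* and *Ssbp1*), beside 23.9% of all genes, and 1 rose (*Tfb2m*), beside 16.2%. The medians were -1.25 and 0.12. These comparisons share the GV library, so a single high or low value in GV enters all of them.

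**Figure D2:**
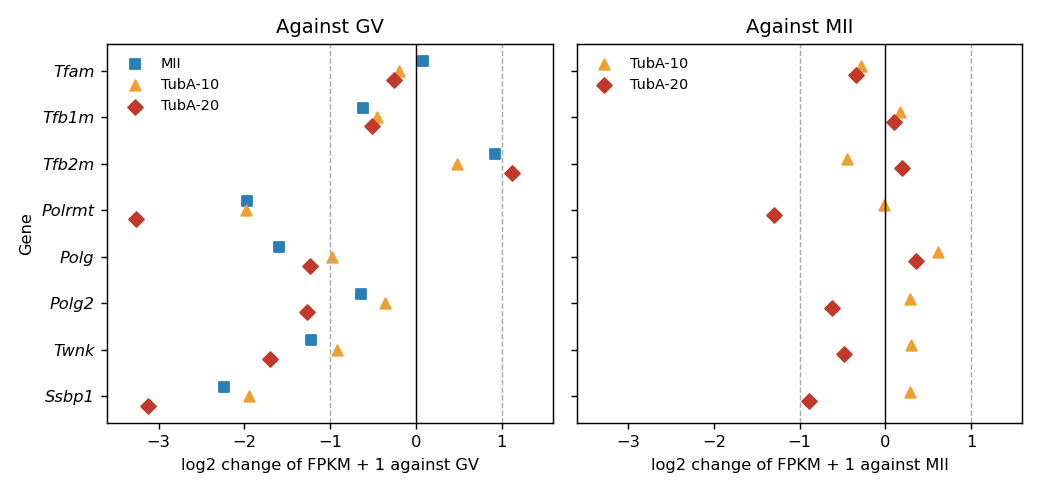
Change of each of the 8 genes as log2 of the ratio of FPKM + 1, against GV on the left (MII, TubA-10 and TubA-20) and against MII on the right (TubA-10 and TubA-20); each marker is 1 library against 1 library and dashed lines mark 2-fold. *Polrmt* and *Ssbp1* in TubA-20 lie farthest left, at -3.27 and -3.13 against GV, and *Polrmt* in TubA-20 is the marker past the line against MII, at -1.30.

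The drug-free oocytes of the same culture time gave the other base. In TubA-10 against MII none of the 8 members passed 2-fold in either direction, beside 0.235% of all genes lower and 1.05% higher. Of the members, 5 had a positive and 3 a negative change, beside 48.8% of all genes below 0, and the median was 0.23 for the members and 0.01 for all genes. In TubA-20 against MII, *Polrmt* fell, 1 of 8 beside 5.22% of all genes, and none rose, beside 0.608%. Here 5 members had a negative and 3 a positive change, near the 49.6% of all genes below 0, with a median of -0.41 for the members and 0.00 for all genes. Set side by side, 7 of the 8 members had a lower FPKM in TubA-20 than in TubA-10, the exception being *Tfb2m*, beside 48.4% of all genes, and 5 had their lowest level of the 4 libraries in TubA-20 (*Tfam*, *Polrmt*, *Polg2*, *Twnk* and *Ssbp1*), beside 36.1% of all genes. These comparisons share the MII library. TubA-20 was also estimated to be shallower than MII and TubA-10, and so was GV.

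**Figure D3:**
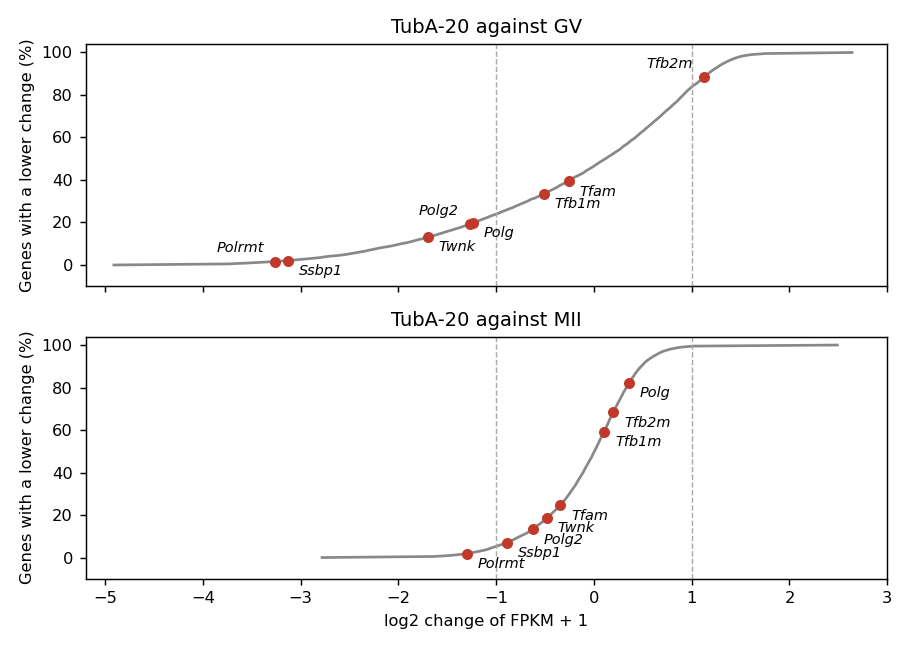
Share of the 10199 genes with a mean of at least 1 FPKM that had a lower change (y axis, percent) against the log2 change of FPKM + 1 (x axis), for TubA-20 against GV above and TubA-20 against MII below; the grey line is all genes, points are the 8 members and dashed lines mark 2-fold. *Polrmt* lies near the low end in both panels (1.64% and 1.83%), whereas *Tfb2m* lies at 88.2% against GV.

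Genes that work beside the members were counted in lists by role. The lists keep genes under a mean of 1 FPKM, which the shares over all genes leave out. At or above that mean were 6 of 7 genes for transcription, 8 of 10 for replication and maintenance and 12 of 14 for nucleotide supply. The same held for 16 of 16 for RNA processing and decay and 6 of 10 for the regulators. Of 7 other genes of mitochondrial transcription, 3 fell past 2-fold in TubA-20 against GV and none rose, beside 23.9% of all genes lower and 16.2% higher, and the list median was 0.01 beside 0.12 over all genes. The 3 were *Mrpl12*, a ribosomal protein that also binds POLRMT, *Mterf4*, which takes part in mitochondrial ribosome assembly, and the elongation factor *Tefm*. *Mrpl12* measured 217.6 FPKM in GV, 35.6 FPKM in MII, 52.9 FPKM in TubA-10 and 13.1 FPKM in TubA-20. It fell by 3.95 on the log2 scale in TubA-20 against GV and by 1.37 in TubA-20 against MII, below *Polrmt* in both. *Tefm* measured 8.88, 2.81, 2.74 and 1.02 FPKM in the same order of libraries, a change of -2.29 from GV to TubA-20. *Mterf4* measured 135.2, 36.5, 54.7 and 25.2 FPKM, a change of -2.38. *Mterf1b*, a termination factor gene, had a change of 0.58. The lower transcript level of the polymerase thus stood beside lower transcript levels of its elongation factor and of *Mrpl12*, while *Tfam* did not share it.

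The 10 other genes of replication and maintenance held 1 that fell and 2 that rose past 2-fold in TubA-20 against GV, beside 23.9% and 16.2% of all genes, with a median of -0.14. *Endog*, a mitochondrial nuclease, measured 56.9 FPKM in GV, 21.5 FPKM in MII, 34.4 FPKM in TubA-10 and 16.8 FPKM in TubA-20, a change of -1.70 from GV to TubA-20. *Dna2*, a nuclease and helicase, measured 4.61, 9.97, 8.87 and 11.5 FPKM in that order and rose by 1.16, which came to 0.97 with the median change of all genes set to 0. *Atad3a*, a membrane protein associated with nucleoids, rose by 1.19. *Top3a*, a topoisomerase that separates daughter genomes, had a change of -0.96, short of 2-fold, but passed it (down to -1.15) with smaller pseudocounts, the median set to 0 or equal upper quartiles.

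Among 14 genes of nucleotide supply, 2 fell and none rose past 2-fold in TubA-20 against GV, both smaller shares than the 23.9% and 16.2% of all genes, with a median of -0.09. *Tk2*, the mitochondrial thymidine kinase, measured 24.8 FPKM in GV, 9.99 FPKM in MII, 11.7 FPKM in TubA-10 and 4.88 FPKM in TubA-20, a change of -2.13 from GV to TubA-20. It stands in a pyrimidine metabolism list that the study chose on these samples, so its direction is no independent evidence. *Sucla2*, a succinyl-CoA ligase subunit, fell by 1.74. *Dguok*, the deoxyguanosine kinase of the organelle, and *Suclg2*, the partner subunit of another succinyl-CoA ligase, had changes of 0.97 each, and each passed 2-fold at equal *Gapdh*. The kinases for pyrimidine and for purine salvage thus lay on opposite sides of 0.

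Of 16 genes of mitochondrial RNA processing and decay, 5 fell and 2 rose, shares near the 23.9% and 16.2% of all genes, with a median of -0.31. *Prorp*, the nuclease of mitochondrial RNase P (listed as 1110008L16Rik), fell by 3.39 and its partner *Hsd17b10* by 1.97 in TubA-20 against GV. *Slirp*, which stabilizes mitochondrial messengers, fell by 2.99, while *Fastkd1*, an RNA-binding regulator, rose by 1.42. Of 10 nuclear regulators and proteases of TFAM, 6 of which have a mean of at least 1 FPKM, 2 fell and none rose. The shares of all genes were the same 23.9% and 16.2%, and the list median was -0.07. *Lonp1*, the protease that degrades TFAM, measured 50.8 FPKM in GV, 20.9 FPKM in MII, 23.3 FPKM in TubA-10 and 14.6 FPKM in TubA-20 and fell by 1.73. *Nrf1* fell by 1.06, which came to -0.99 at equal *Gapdh*. *Gabpb1*, a GABP subunit, had a change of -0.39 and the coactivator *Ppargc1b* one of 0.72, and *Esrra* was listed at 0 in all libraries.

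**Figure D4:**
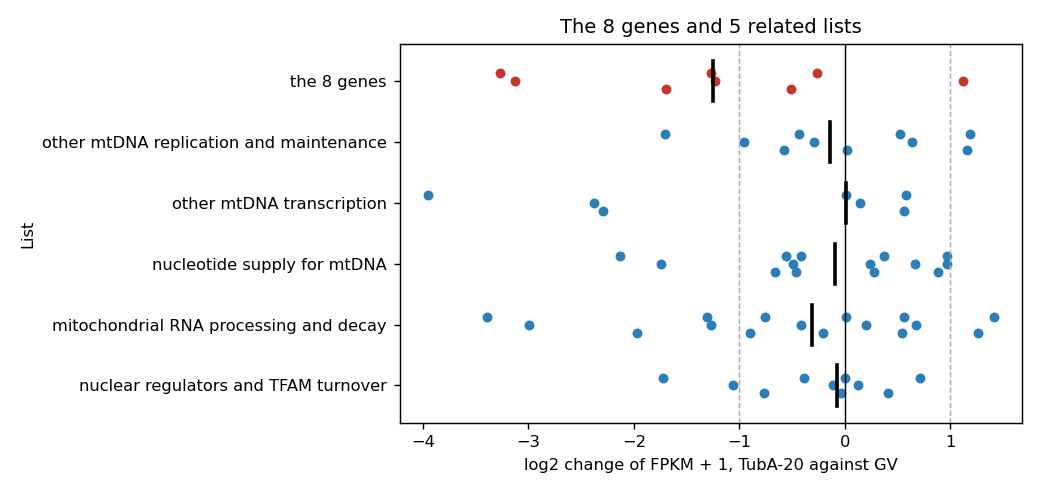
Change in TubA-20 against GV (log2 of the ratio of FPKM + 1, x axis) of every gene in the 8 members and the lists of genes that work beside them; each point is 1 gene, vertical ticks are list medians and dashed lines mark 2-fold. The members have the lowest median, -1.25, and the lists have medians between -0.31 and 0.01.

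In MII against GV the same lists held 1 gene past 2-fold lower of 10 for replication and maintenance, 3 of 7 for transcription and 3 of 14 for nucleotide supply. RNA processing and decay held 4 of 16 and the regulators 1 of 10, and none was higher in any list. Among the list genes rerun under other scalings, *Dna2*, *Atad3a*, *Suclg2* and *Fastkd1* passed 2-fold higher there at equal *Gapdh*. *Supv3l1* (0.92), *Rrm2* (0.87) and *Rnaseh1* (0.86) had larger changes there than *Fastkd1* (0.82) and were not rerun. *Sucla2*, 1 of the 3 for nucleotide supply (-1.03), came to as little as -0.80 and lost its call at equal upper quartiles, FPKM sums or *Gapdh*. Of all genes, 17.2% were lower and 6.5% higher in that comparison. In TubA-20 against MII, 1 gene over the lists passed 2-fold, *Mrpl12*, beside 5.22% of all genes lower. *Tefm* (-0.92) and *Tk2* (-0.90) came to as low as -1.45 and -1.04 under other pseudocounts or scalings.

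The products of the machinery were barely represented in the table. Of the 13 protein genes encoded in mitochondrial DNA, 8 were listed at 0 in all 4 libraries, *mt-Co1* and *mt-Cytb* among them, and genes at 0 there are ones that every cell uses, so a listed 0 may be a failed estimate. The 13 genes summed to 1.43 FPKM in GV, 4.88 FPKM in MII, 2.73 FPKM in TubA-10 and 16.9 FPKM in TubA-20. *mt-Nd2*, a complex I subunit, measured 1.27, 3.06, 1.96 and 6.44 FPKM, and *mt-Co3*, a complex IV subunit, measured 0.110, 0.232, 0.0697 and 5.92 FPKM, in each case highest in TubA-20. These values do not measure mitochondrial transcription, and no fold is given against a library at 0.

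Genes of like profile were sought for *Tfam* and *Ssbp1* among the 6367 genes with at least 10 FPKM in a library, by the same distance over the 4 libraries. The closest to *Tfam* were *Lsg1* (distance 0.0411), *Chaf1a* (0.0567) and *Golga3* (0.0729). The closest to *Ssbp1* were *Gins4* (0.0793), *Nelfe* (0.0814) and *Nat9* (0.0925). *Gins4*, a subunit of the nuclear replication helicase, measured 116.4 FPKM in GV, 22.3 FPKM in MII, 28.2 FPKM in TubA-10 and 11.6 FPKM in TubA-20. With 4 libraries many genes share such a profile, and the distances describe these libraries only.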

How the data were processed

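Libraries were made from poly(A) RNA, so a change in tail length and a change in amount cannot be told apart. The submitters' processing notes name STAR 2.5.0, Cufflinks and Cuffdiff 2.2.1 and the mouse build mm10; the study's methods state strand-specific counting by Cufflinks. The authors deposited gene-level FPKM, with no counts, and relative depth was estimated from the spacing of low values. The study's text also states read totals, which are not reprinted here and which place TubA-20 above GV, unlike that estimate. Of 21959 entries, 21794 were given a symbol from GENCODE, and entries of the same symbol were added. Gene identifiers are printed with the version deposited with the values, while coordinates are those of GENCODE. There *Tfb1m* is ENSMUSG00000036983.7 and *Twnk* is ENSMUSG00000025209.5. Changes are log2 ratios of FPKM + 1; shares over all genes use the 10199 with a mean of at least 1 FPKM. Calls past 2-fold have no test, because each condition has 1 library. The 8 members and the gene lists were chosen with earlier results of these data known. All members are named, with the 4 genes of each list that have the largest change in TubA-20 against GV and at least 5 FPKM in a library. *Tiam2*, *Fanci*, *Mrpl43*, *Gm1818*, *Gm12115*, *1500011B03Rik*, *Esrra*, *Supv3l1*, *Rrm2*, *Rnaseh1*, *mt-Co1*, *mt-Cytb* and marker genes were added after their values were seen. Promoters are from RefSeq. Python 3.11.15, numpy 2.4.6, pandas 2.3.3 and matplotlib 3.10.9 were used. The scripts were tested on simulated data. Other pseudocounts (0.1 and 0.01), thresholds and scalings between libraries were tried. The table gives no read number behind a value, so no counting interval is given.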

Additional observations from a re-analysis of the deposited data

How the results depend on the processing

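No paired analysis was possible because each condition has 1 library, and for the same reason no library could be left out. The members' median changes kept their sign under all alternatives, from -1.25 to -0.76 in MII against GV, -0.93 to -0.45 in TubA-10 against GV, -1.79 to -1.18 in TubA-20 against GV, 0.17 to 0.26 in TubA-10 against MII and -0.58 to -0.34 in TubA-20 against MII. Counts of members past 2-fold moved more. Shares of all genes were taken only at 2-fold, on FPKM + 1 and without rescaling. The counts at other settings therefore have no such share beside them and describe the members only. In MII against GV, 1 in place of 0 rose with pseudocounts of 0.1 or 0.01, equal FPKM sums, equal *Gapdh* or a 1.5-fold threshold, and 6 at 1.5-fold or 3 at 3-fold in place of 4 fell. In TubA-10 against GV, 4 in place of 2 fell with either pseudocount, with the median change of all genes set to 0 or at 1.5-fold. In TubA-20 against GV, 3 in place of 5 fell at 3-fold, and 0 in place of 1 rose at 3-fold or with the median set to 0. In TubA-10 against MII, 1 in place of 0 rose at 1.5-fold. In TubA-20 against MII, 2 in place of 1 fell with either pseudocount or with equal upper quartiles, FPKM sums or *Gapdh*, 3 at 1.5-fold and 0 at 3-fold. Fewer or more members pass another threshold by its construction, and a smaller pseudocount enlarges the changes of low genes by its construction. Each scaling applies the same factor to all genes of a library, or the same shift to all changes of a comparison. Changes close to the line can therefore cross it by construction. Which scaling is right was not tested. Over all genes of the table, those under a mean of 1 FPKM included, the shares past 2-fold were smaller, such as 8.34% lower in MII against GV and 11.7% lower in TubA-20 against GV. Of 40 changes of single members, 4 turned sign and 6 changed their call in some alternative. Equal *Gapdh* shifted the median of all genes by 0.19 in MII against GV and by 0.23 in TubA-10 against GV. With no read number behind the values, how far depth limits each gene is unknown.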
